A study of Homo sapiens with 18 samples.

Results

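OVCAR3 cells, an established line of high-grade serous ovarian carcinoma, were exposed to antibodies, and the transcripts of 8 genes of the vascular endothelial growth factor (VEGF) system were followed across all 18 RNA libraries. The 8 genes were the receptors KDR and FLT1, the co-receptors NRP1 and NRP2, and the ligands VEGFA, VEGFB, VEGFC and PGF, of 55765 genes in both count tables. They were matched by symbol. KDR was chosen by its lower read count with the IgA against BDNF and the IgA against TSPAN7 than in untreated cells, so its values in those libraries are a description and carry no test. The other 7 were added as its receptor, co-receptor and ligand family, with earlier results of these data known. FLT4, the remaining receptor of the family, and the ligand VEGFD, listed under its older symbol FIGF, are given beside them.

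The first series of libraries held cells given non-specific IgA, cells given non-specific IgG, both natural human antibodies, and untreated cells. The second series held cells given BDNF IgA, cells given TSPAN7 IgA, and its own untreated cells. BDNF is a secreted neurotrophin and TSPAN7 a membrane tetraspanin, and these IgAs came from immortalised tumour-derived B cells sorted with peptides of each antigen. Each of the 6 groups had 3 libraries. Antibodies were used at 0.5 µg/ml for 24 h in RPMI medium with 2% FBS, and all groups were cells of this single line, with no genetic change. A supplementary description of the study gives a shorter exposure. Nothing in the labels says that the 3 libraries of a group came from separate cultures. A figure legend of the paper gives 3 experiments for the first series, without saying whether replicate numbers pair. The p-values measure the spread between these libraries, which may be technical. All comparisons were made within a series.

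VEGF ligands are secreted dimers that bind receptor tyrosine kinases. KDR (VEGFR2) is the main signalling receptor for VEGFA on endothelial cells, and FLT1 (VEGFR1) binds VEGFA, VEGFB and PGF and is often regarded as a decoy for VEGFA. FLT4 (VEGFR3) binds VEGFC and VEGFD and is best known from lymphatic vessels. Neuropilins are co-receptors with short cytoplasmic tails that bind both VEGF ligands and class 3 semaphorins, the latter together with plexins. Carcinoma cells are a major source of VEGFA in ovarian tumours, where the ligand promotes vessel growth and permeability.

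On GRCh37, with GENCODE gene models, KDR lies on the minus strand at chr4:55944648-55991762 and VEGFC on the minus strand at chr4:177604689-177714076. NRP2 lies on the plus strand at chr2:206546714-206662857 and NRP1 on the minus strand at chr10:33466420-33625190. VEGFA lies on the plus strand at chr6:43737921-43754224, VEGFB on the plus strand at chr11:64002056-64006736, PGF on the minus strand at chr14:75408537-75422329 and FLT1 on the minus strand at chr13:28874483-29069282. A long non-coding RNA gene on the opposite strand overlaps KDR, NRP1, NRP2, VEGFA and VEGFC. Whether reads were counted by strand is not given, so such pairs may share reads.

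RefSeq promoter windows, from 250 bases before to 50 bases after an annotated start, were found for 6 of the 8 genes, and NRP1 and VEGFA had no entry. The windows were given on GRCh38.p14, and each matched GRCh37 exactly at a single place. Windows of 4 genes are printed here because they belong to KDR, NRP2 and VEGFC, the genes with the largest changes in the first series, and to PGF, which changed with BDNF IgA (the start nearer the gene body of the pair listed). They read 5′ to 3′ along the gene, and capitals mark GC boxes, the Sp1-type motif GGGCGG or its reverse complement.
KDR, chr4:55991713-55992012, minus strand: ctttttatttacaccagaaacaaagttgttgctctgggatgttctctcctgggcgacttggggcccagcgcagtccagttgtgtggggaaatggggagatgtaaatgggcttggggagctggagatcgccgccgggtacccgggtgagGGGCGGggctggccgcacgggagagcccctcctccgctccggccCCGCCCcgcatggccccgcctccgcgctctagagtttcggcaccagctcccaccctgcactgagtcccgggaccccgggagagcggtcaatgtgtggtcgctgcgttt
NRP2, chr2:206546975-206547274, plus strand: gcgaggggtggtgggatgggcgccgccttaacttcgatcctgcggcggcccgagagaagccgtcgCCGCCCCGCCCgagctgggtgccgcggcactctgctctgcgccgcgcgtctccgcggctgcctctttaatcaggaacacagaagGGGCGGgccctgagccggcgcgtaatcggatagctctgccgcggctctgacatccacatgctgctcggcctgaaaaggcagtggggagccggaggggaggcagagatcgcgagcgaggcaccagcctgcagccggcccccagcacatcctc
VEGFC, chr4:177714027-177714326, minus strand: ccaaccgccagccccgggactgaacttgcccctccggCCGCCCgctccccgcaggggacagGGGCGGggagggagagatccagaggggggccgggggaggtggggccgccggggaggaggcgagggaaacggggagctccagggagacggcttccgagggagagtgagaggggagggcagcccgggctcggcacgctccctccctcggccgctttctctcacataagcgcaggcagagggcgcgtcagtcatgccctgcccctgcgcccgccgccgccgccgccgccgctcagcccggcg
PGF, chr14:75422251-75422550, minus strand: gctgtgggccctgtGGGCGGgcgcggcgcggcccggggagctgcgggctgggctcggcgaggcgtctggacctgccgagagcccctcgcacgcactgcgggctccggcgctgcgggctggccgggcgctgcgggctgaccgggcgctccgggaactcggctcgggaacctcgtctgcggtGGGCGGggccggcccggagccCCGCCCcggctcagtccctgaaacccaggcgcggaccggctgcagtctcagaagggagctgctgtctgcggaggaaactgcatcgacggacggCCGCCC

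The KDR window held 2 GC boxes, NRP2 held 3, VEGFC held 2 and this PGF window held 4, with both strands searched and overlapping matches counted. Of 35116 promoter windows of the same length, 45.0% held at least 1 GC box and 15.8% held 3 or more. The GC content of the windows was 65.0% for KDR, 70.0% for NRP2, 76.3% for VEGFC and 77.7% for PGF, against a median of 58.7% over all windows. The NF-kB consensus matched once in the KDR window and once in the VEGFC window, and in 11.3% of all windows; neither match overlapped a GC box. None of the 4 windows held the AP-1 motif TGANTCA or the hypoxia response core ACGTG, which 7.71% and 21.4% of all windows held. The other hypoxia core, GCGTG, matched once each in the VEGFC and PGF windows and in 36.5% of all windows. A match is a description of the letters and not evidence of a bound factor.

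Libraries of the first series held 27920733 to 42371474 counts, and those of the other series 39254350 to 47381836. Mitochondrially encoded genes took 19.1% of counts in IgA replicate 3, against 5.75% to 8.32% in the other 8 libraries of its series, with 8.60% to 10.2% across the other series. That library stood apart. The differences of the 7 tested members with IgA, and those of FLT4 and the gene lists against untreated cells, are given with and without it. Replicates of the second series lay closer together (common dispersion 0.00303, against 0.0307). Of 10 markers of the labelled serous carcinoma line, 9 had at least 1000 counts in every library. Of 10 endothelial markers 9 had a row, and 4 of these never reached 10 counts, with ROBO4 and CLDN5 at 3 counts or fewer in every library. Summed endothelial markers stood at 7.31 to 18.9 CPM (counts scaled to the effective library size), and ERG, at 113 to 621 counts per library, led that sum. Leukocyte markers summed to 0.573 to 2.13 CPM, and CD3E and MS4A1 had at most 3 counts anywhere.

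VEGF transcripts in these cells were mainly ligand and neuropilin, with little receptor. Per kb of exon, untreated cells of the first series held VEGFB at 27.2 ± 0.302 CPM per kb (mean ± SD, n = 3, as for all such values), VEGFA at 10.5 ± 1.91, NRP1 at 4.24 ± 0.844 and NRP2 at 2.37 ± 0.142. These 4 genes were followed by PGF at 0.800 ± 0.0984, KDR at 0.553 ± 0.111 and VEGFC at 0.537 ± 0.205. The ranges of KDR and VEGFC overlapped, and those of the other neighbours in this order did not. Exon lengths are the union of all annotated exons, which understates genes with long unused exons. The union was 14431 bases for VEGFA and 1970 for VEGFB, so the order of these 2 genes rests on it. Before division by length, VEGFA stood at 152 ± 27.5 CPM and VEGFB at 53.5 ± 0.594 in these cells.

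In untreated cells of the second series VEGFB stood at 22.8 ± 0.532 CPM per kb, NRP1 at 15.2 ± 0.617, VEGFA at 10.8 ± 0.795 and NRP2 at 8.20 ± 0.133. VEGFC stood at 1.11 ± 0.0450, PGF at 0.392 ± 0.0171 and KDR at 0.237 ± 0.0257. No neighbours among these 7 overlapped in range. The series were scaled separately, and levels were not tested between them.

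**Figure D1:**
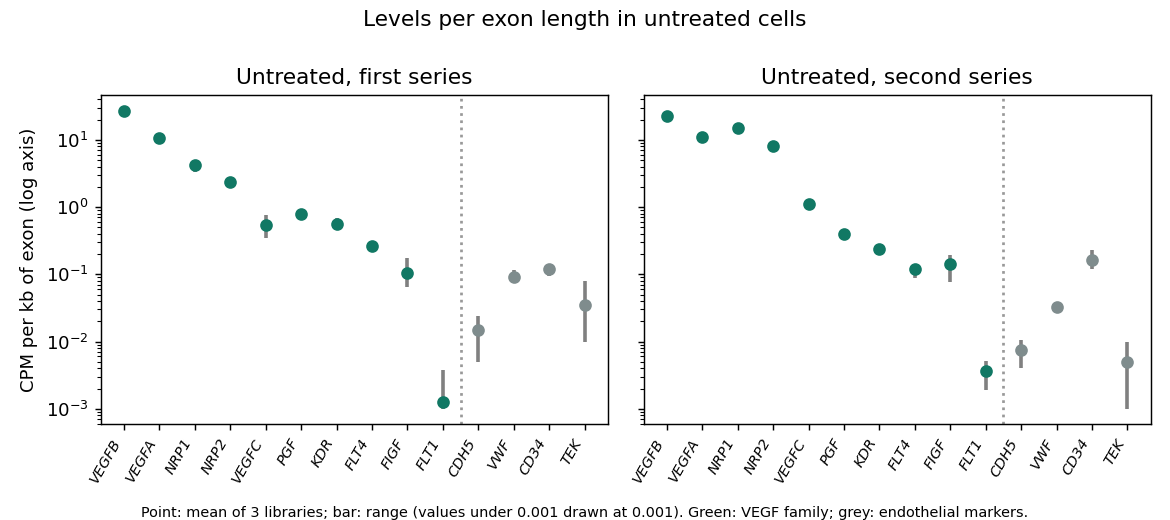
Level per exon length (CPM per kb, log axis) in untreated cells of the first series (left) and the second (right). Points are means of 3 libraries and bars their range, with VEGF system genes in green and 4 endothelial markers in grey. VEGFB was highest per kb in both series, and its order with VEGFA rests on the exon lengths used. FLT1 was at most 0.00508 CPM per kb in these libraries.

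FLT1 was close to absent. It had 0 counts in all 3 IgA libraries, 0 to 2 in the IgG libraries and their untreated cells, and 0 to 3 across the second series. These counts lie at or below 3, so no fold change is given and FLT1 was tested in neither series. FLT4 had 33 to 102 counts per library and FIGF had 0 to 29.

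KDR was lower with non-specific IgA and was not lower with IgG. Normalised read counts (each library brought to the average effective size within its series) were 50.5, 52.0 and 69.5 with IgA. They were 123, 129 and 160 with IgG, and 109, 152 and 110 in untreated cells. All 3 IgA libraries lay below all 6 others, and the IgG and untreated libraries overlapped.

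The fall in KDR with IgA, on the log2 scale with its SE, was −1.27 ± 0.25 against IgG (2.41-fold, edgeR adjusted p = 0.00353) and −1.12 ± 0.25 against untreated cells (2.17-fold, edgeR adjusted p = 0.00684). Between IgG and untreated cells KDR differed by 0.15 ± 0.24, less than the spread between replicates (edgeR adjusted p = 1). Without IgA replicate 3 the differences were −1.42 against IgG and −1.27 against untreated cells. These rest on 44 to 52 raw counts per IgA library. In bulk RNA, fewer cells that express a gene and less RNA per cell cannot be told apart.

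In the second series KDR stood at 33.3, 29.0 and 29.5 normalised counts with BDNF IgA. It stood at 25.0, 26.4 and 17.3 with TSPAN7 IgA, and at 63.8, 56.6 and 70.4 in untreated cells. The order was TSPAN7 IgA, BDNF IgA and untreated cells, and no neighbouring groups overlapped. The gap to untreated cells follows from how KDR was chosen. Of all genes, 24.8% did not overlap between BDNF IgA and untreated cells, and 23.6% did not between the 2 IgAs. As a description, KDR differed from untreated cells by −1.06 ± 0.24 with BDNF IgA (2.08-fold lower) and by −1.47 ± 0.26 with TSPAN7 IgA (2.77-fold lower) on the log2 scale. The 2 antigen-specific IgAs differed by −0.41 ± 0.28 (TSPAN7 IgA minus BDNF IgA), with 16 to 33 raw counts per library behind each value. Both are set against the same untreated libraries.

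**Figure D2:**
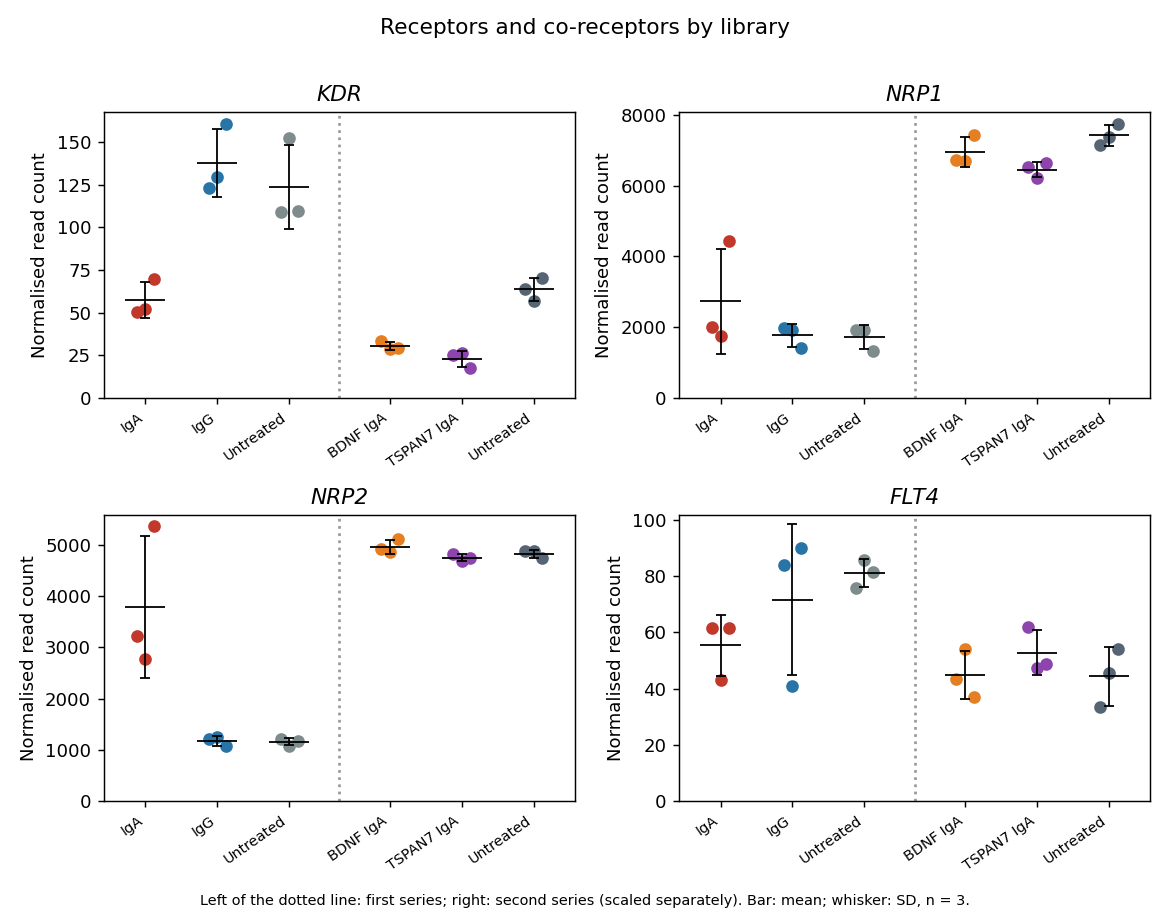
Normalised read counts of KDR, NRP1, NRP2 and FLT4 in every library, by group, with the mean (bar) and SD (whisker, n = 3); the dotted line separates the series, which were scaled separately. KDR with IgA sat between 50.5 and 69.5, below every IgG and untreated library, and NRP1 in the IgA group was spread from 1745 to 4439.

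FLT4, the receptor for VEGFC, was not called in any comparison. It stood at 61.7, 43.0 and 61.6 normalised counts with IgA against 75.8, 85.8 and 81.4 in untreated cells (log2 fold change −0.55 ± 0.33 SE, edgeR adjusted p = 0.241). The IgA libraries lay below the untreated ones, although IgG spanned both, from 41.0 to 90.0. The difference was −0.64 when IgA replicate 3 was left out (edgeR adjusted p = 0.201). In the second series FLT4 differed from untreated cells by 0.01 ± 0.25 with BDNF IgA and by 0.24 ± 0.25 with TSPAN7 IgA.

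NRP2, the neuropilin that also binds VEGFC, was the most clearly raised member with non-specific IgA. Its normalised counts were 3228, 2771 and 5366 with IgA, 1209, 1253 and 1068 with IgG, and 1216, 1081 and 1180 in untreated cells. The lowest IgA library was above every other library of the series. NRP2 was 3.21-fold higher with IgA than with IgG (1.68 ± 0.20 on the log2 scale, edgeR adjusted p = 9.97e-05) and 3.26-fold higher than in untreated cells (1.71 ± 0.20, edgeR adjusted p = 8.7e-05). Without IgA replicate 3, the highest library, the differences were 1.35 and 1.37.

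With the antigen-specific IgAs no difference in NRP2 was called, and each group overlapped untreated cells. It stood at 4914, 4866 and 5118 with BDNF IgA, at 4825, 4687 and 4751 with TSPAN7 IgA, and at 4880, 4875 and 4742 in untreated cells. The differences from untreated cells were 0.04 ± 0.04 with BDNF IgA (edgeR adjusted p = 0.643) and −0.02 ± 0.04 with TSPAN7 IgA (edgeR adjusted p = 0.809). Untreated cells of the 2 series stood at 32.9 ± 1.98 CPM (first) and 114 ± 1.85 CPM (second).

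NRP1, the neuropilin that binds VEGFA and the main semaphorin 3A receptor, was not called with non-specific IgA. Its normalised counts were 2014, 1745 and 4439 with IgA, 1983, 1927 and 1402 with IgG, and 1925, 1916 and 1327 in untreated cells. The IgA group overlapped both others, and its replicate 3 stood far above every other library. The difference was 0.62 ± 0.29 against IgG (edgeR adjusted p = 0.131) and 0.66 ± 0.29 against untreated cells (edgeR adjusted p = 0.108). It was 0.08 and 0.13 without IgA replicate 3, and without IgA replicate 2 it was 0.86 and 0.90 and passed the threshold (edgeR adjusted p = 0.0356 and 0.0291).

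With TSPAN7 IgA, NRP1 was slightly lower. It stood at 6517, 6218 and 6628 normalised counts, below all 3 untreated libraries at 7158, 7364 and 7752. The change was −0.20 ± 0.05 (13.1% lower, edgeR adjusted p = 0.0108), and the call ended when TSPAN7 IgA replicate 2 was left out (edgeR adjusted p = 0.0905) or untreated replicate 3 was (0.0751). With BDNF IgA the counts were 6719, 6699 and 7430, which overlapped untreated cells (−0.10 ± 0.05, edgeR adjusted p = 0.258). The difference between the 2 IgAs was not called (−0.11 ± 0.05, edgeR adjusted p = 0.194).

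VEGFA, the principal angiogenic ligand, rose with non-specific IgA by a smaller factor. Its normalised counts were 7631, 6952 and 9494 with IgA, 4398, 4926 and 6284 with IgG, and 4780, 4795 and 6466 in untreated cells. The IgA libraries lay above all others of the series. VEGFA was 1.54-fold higher than with IgG (0.63 ± 0.16 on the log2 scale, edgeR adjusted p = 0.014) and also higher than in untreated cells (0.59 ± 0.16, edgeR adjusted p = 0.0187). When IgA replicate 3, the highest library, was left out the differences were 0.49 and 0.45 and were still called (edgeR adjusted p = 0.0317 and 0.0443). With scaling by library size alone, which moved the median of all genes by −0.23 and −0.21, VEGFA was not called (0.38, edgeR adjusted p = 0.080, and 0.36, edgeR adjusted p = 0.0934). It was also not called against IgG without IgG replicate 1 (edgeR adjusted p = 0.0638) or 2 (0.0615), nor against untreated cells without untreated replicate 1 (0.0874) or 2 (0.0832).

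VEGFA with the antigen-specific IgAs did not pass the threshold. It stood at 7137, 5854 and 6770 with BDNF IgA, 5699, 5973 and 5712 with TSPAN7 IgA, and 6383, 6319 and 7192 in untreated cells. The TSPAN7 IgA libraries lay below the untreated ones, and the BDNF IgA libraries overlapped them. The difference was −0.19 ± 0.06 with TSPAN7 IgA (edgeR adjusted p = 0.0515), which DESeq2 called (adjusted p = 0.032), and −0.01 ± 0.06 with BDNF IgA (edgeR adjusted p = 0.948).

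VEGFC, the lymphangiogenic ligand of FLT4 and NRP2, showed the largest fold of the ligands with non-specific IgA. Its normalised counts were 145, 114 and 267 with IgA, 68.1, 41.0 and 24.2 with IgG, and 46.7, 69.8 and 32.2 in untreated cells. The IgA libraries were all above the rest. VEGFC was 3.88-fold higher than with IgG (1.96 ± 0.43 on the log2 scale, edgeR adjusted p = 0.00587) and 3.50-fold higher than in untreated cells (1.81 ± 0.42, edgeR adjusted p = 0.00824). Without IgA replicate 3 the differences were 1.53 and 1.38.

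In the second series VEGFC stood between 115 and 148 normalised counts in all 9 libraries. It differed from untreated cells by −0.0028 ± 0.14 with BDNF IgA (edgeR adjusted p = 0.994) and by 0.15 ± 0.14 with TSPAN7 IgA (edgeR adjusted p = 0.587). The groups overlapped.

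VEGFB, a ligand of FLT1 and NRP1, was the highest member per kb of annotated exon, although VEGFA had more counts. It stood at 1636, 1655 and 1379 normalised counts with IgA, 1777, 1916 and 1917 with IgG, and 1879, 1909 and 1869 in untreated cells. The IgA libraries lay below the others without reaching the threshold (−0.26 ± 0.10 against IgG, edgeR adjusted p = 0.0758, and −0.28 ± 0.10 against untreated cells, edgeR adjusted p = 0.0635). VEGFB was called in both comparisons with upper quartile scaling (−0.32 in each, edgeR adjusted p = 0.0344 and 0.0303), with scaling by library size alone (−0.49 and −0.48, edgeR adjusted p = 0.0238 and 0.0272) and without IgA replicate 2 (−0.31 and −0.33, edgeR adjusted p = 0.0478 and 0.0414). The differences were −0.19 and −0.20 without IgA replicate 3, the lowest library (edgeR adjusted p = 0.158 and 0.134). With BDNF IgA the difference from untreated cells was 0.09 ± 0.06 (edgeR adjusted p = 0.363) and with TSPAN7 IgA −0.08 ± 0.06 (edgeR adjusted p = 0.471).

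PGF, the placental growth factor that binds FLT1, was raised with BDNF IgA. It stood at 154, 147 and 166 normalised counts, above all 3 untreated libraries at 93.2, 101 and 94.8. The change was 1.61-fold (log2 fold change 0.69 ± 0.14 SE, edgeR adjusted p = 0.00344). With TSPAN7 IgA the counts were 113, 119 and 127, also above every untreated library, but the difference of 0.31 ± 0.14 was not called (edgeR adjusted p = 0.212). The test between the 2 IgAs gave −0.38 ± 0.14 (TSPAN7 IgA minus BDNF IgA, edgeR adjusted p = 0.0964).

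With non-specific IgA, PGF was 289, 191 and 103 normalised counts, a wider spread than the 183, 206 and 194 with IgG or the 158, 147 and 186 in untreated cells. The IgA libraries held both the highest and the lowest value of the series. The difference was 0.01 ± 0.29 against IgG (edgeR adjusted p = 0.984) and 0.26 ± 0.29 against untreated cells (edgeR adjusted p = 0.55). It was 0.30 and 0.55 without IgA replicate 3, the lowest library, and was not called (edgeR adjusted p = 0.306 and 0.0633).

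**Figure D3:**
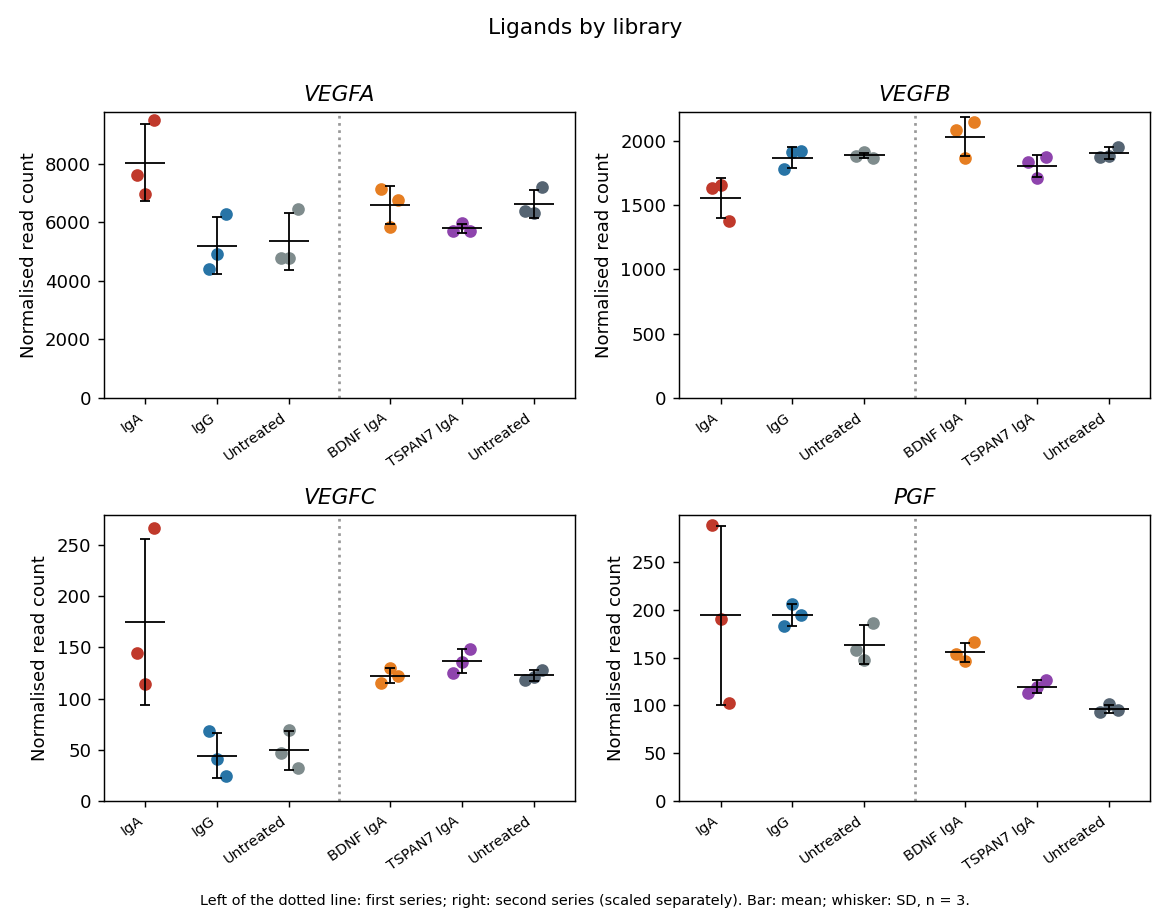
Normalised read counts of VEGFA, VEGFB, VEGFC and PGF in every library, by group, with the mean (bar) and SD (whisker, n = 3); the dotted line separates the series. VEGFC with IgA sat between 114 and 267, above every IgG and untreated library, and PGF with BDNF IgA sat above its untreated cells.

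Across the members, 4 of the 7 tested were called for IgA against IgG, 3 higher (NRP2, VEGFA and VEGFC) and 1 lower (KDR). In that comparison 24.2% of all genes were called, 12.6% higher and 11.6% lower. The same counts held against untreated cells, where 25.0% of all genes were called, 12.9% higher and 12.1% lower. These comparisons share the IgA libraries. Groups did not overlap for 5 of the 7 in each, the called genes and VEGFB, beside 40.3% and 39.9% of all genes.

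IgG against untreated cells called none of the 7 by edgeR, with none at an unadjusted p under 0.05 and none by DESeq2. No gene of 18012 was called there (0%, 0% higher and 0% lower), while 6.75% did not overlap. Only 89 had an unadjusted p under 0.05, fewer than that threshold would pass with no difference at all. These edgeR p-values were therefore conservative, and the lack of calls does not show that IgG had no effect. For BDNF IgA, 1 of 6 tested members was called (PGF, higher), beside 7.67% of 18732 genes, of which 4.49% were higher and 3.18% lower; 1 of 6 did not overlap, beside 24.8%. For TSPAN7 IgA, 1 of 6 was called (NRP1, lower), beside 8.54% of genes, with 4.46% higher and 4.08% lower.

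With TSPAN7 IgA, groups did not overlap for NRP1, VEGFA, VEGFB and PGF, 4 of 6, beside 28.4% of all genes. Between TSPAN7 IgA and BDNF IgA, edgeR called 0 of 6 members, 4 had an unadjusted p under 0.05 and DESeq2 called 1. There 7.92% of all genes were called, 3.42% higher and 4.50% lower, and groups did not overlap for 3 of 6 members (NRP1, NRP2 and PGF) beside 23.6% of genes.

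**Figure D4:**
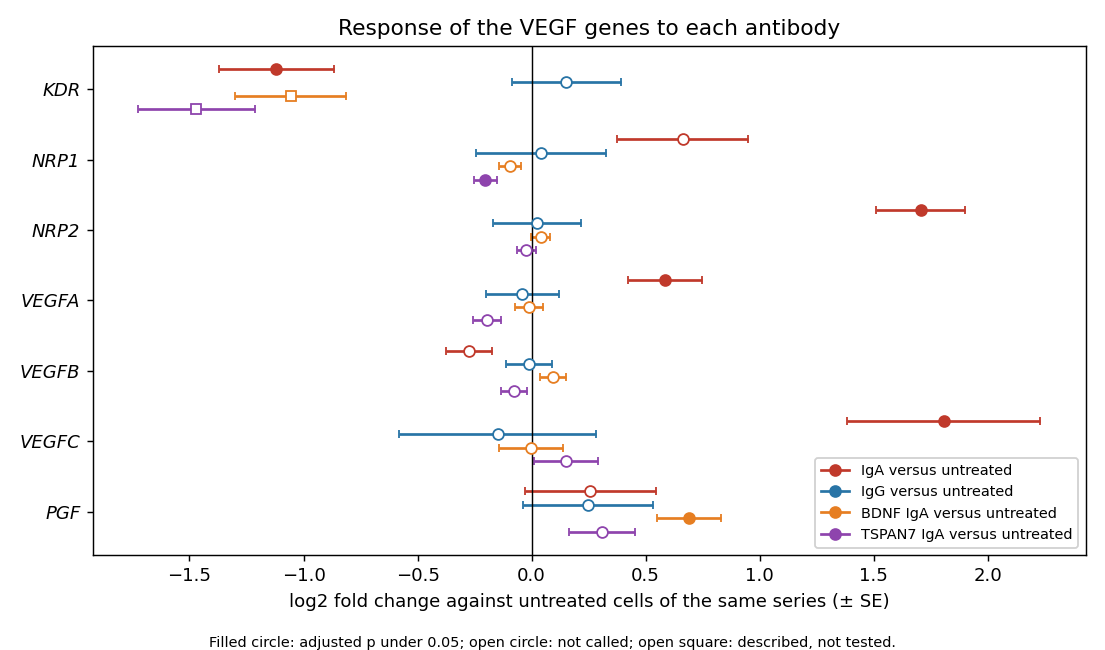
Log2 fold change against untreated cells of the same series for 7 VEGF system genes (rows) with each antibody (colours), with SE bars; filled circles passed an adjusted p of 0.05, open circles did not, and open squares (KDR in the second series) are descriptions. KDR lay left of 0 with non-specific IgA. It also did with BDNF IgA and TSPAN7 IgA, where that side follows from how KDR was chosen. NRP2 (1.71) and VEGFC (1.81) lay furthest right with non-specific IgA.

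Genes of the surrounding pathway were taken from lists written with earlier results of these data known. An excess over the share of all genes may come from that choice. List counts are to be read beside the share of all genes called: 25.0% with IgA against untreated cells (12.9% higher and 12.1% lower), 7.67% with BDNF IgA and 8.54% with TSPAN7 IgA. Of 21 tested VEGF receptor signalling genes, 4 were higher and 1 lower with IgA against untreated cells (median log2 fold change 0.20, against −0.01 over all genes), close to the share of all genes. They were 7 higher and 2 lower of 22 without IgA replicate 3, beside 26.0% of all genes, and the 5 genes called before were among them. SHB, an adaptor that binds phosphorylated KDR, rose by 0.98 ± 0.15 (edgeR adjusted p = 0.00078) and PRKCA, a protein kinase C, by 0.75 ± 0.13 (0.00151), while PIK3R1, the regulatory subunit of PI3-kinase, changed by −0.63 ± 0.13 (0.0032). With BDNF IgA 2 of 22 were higher and with TSPAN7 IgA also 2, again close to the share of all genes, with medians of 0.02 and 0.03. They included HSPB1, a small heat shock protein (0.40 ± 0.05 with BDNF IgA, edgeR adjusted p = 1.72e-05), and the adaptor NCK1 (0.21 ± 0.05 with TSPAN7 IgA, edgeR adjusted p = 0.0141).

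Among 15 tested regulators of receptor traffic and dephosphorylation, 6 were higher and 1 lower with IgA against untreated cells (median 0.24), beside 12.9% and 12.1% of all genes; without IgA replicate 3 they were 7 and 1. DAB2, an endocytic adaptor, rose by 1.51 ± 0.30 (edgeR adjusted p = 0.00321), or by 1.04 ± 0.21 without IgA replicate 3 (0.00315). EFNB2, an ephrin that controls VEGF receptor internalisation, fell, with a change of −1.17 ± 0.12 (4.63e-05). CDH5, the endothelial cadherin, had 9 to 40 raw counts with IgA and 1 to 6 in untreated cells (2.84 ± 0.77, edgeR adjusted p = 0.0174), and was not called against IgG (1.65 ± 0.71, edgeR adjusted p = 0.109). It was at 0 or 1 count in the libraries with BDNF or TSPAN7 IgA, and it was the only one of 4 tested endothelial markers called with IgA.

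With BDNF IgA 1 of 14 tested regulators was higher, the phosphatase PTPN6 (0.51 ± 0.10, edgeR adjusted p = 0.00273), and 1 was lower, the phosphatase PTPRB (−0.21 ± 0.05, edgeR adjusted p = 0.0133). With TSPAN7 IgA 2 were higher, including the phosphatase PTPRJ (0.21 ± 0.05, edgeR adjusted p = 0.00506). The medians were 0.01 and 0.07, and the counts of 2 of 14 stood beside 7.67% and 8.54% of all genes.

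Neuropilin partners moved in both directions. With IgA against untreated cells 2 of 10 tested semaphorins and plexins were higher and 4 lower (median −0.31), beside 12.9% and 12.1% of all genes, and 2 and 4 again without IgA replicate 3, with 5 of the 6 genes shared. SEMA3C, a semaphorin ligand of neuropilins, rose by 1.51 ± 0.15 (edgeR adjusted p = 2.66e-05) and SEMA3A by 0.74 ± 0.13 (0.00161), while the co-receptor PLXNA1 changed by −0.82 ± 0.13 (0.000628). SEMA3C was also higher with TSPAN7 IgA (0.42 ± 0.05, edgeR adjusted p = 6.76e-06), as was SEMA3B (0.34 ± 0.06, 0.000422), and PLXNA3 was higher with BDNF IgA (0.38 ± 0.08, 0.00506). In all, 4 of 10 were higher with BDNF IgA and 3 with TSPAN7 IgA, and none was lower, beside 4.49% and 4.46% of all genes higher. The medians were 0.06 with BDNF IgA and −1.63e-05 with TSPAN7 IgA.

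Hypoxia targets are a group that VEGFA belongs to by its regulation. With IgA against untreated cells 7 of 12 were higher and none lower (median 0.66), beside 12.9% of all genes higher; without IgA replicate 3 they were 8 of 12. ADM, a vasodilator peptide, rose by 2.13 ± 0.19 (edgeR adjusted p = 1.44e-05), BNIP3, a mitophagy receptor, by 1.55 ± 0.14 (1.65e-05) and P4HA1, a collagen prolyl hydroxylase, by 0.93 ± 0.15 (0.00079). With BDNF IgA 2 of 12 were lower and with TSPAN7 IgA 4, and none was higher (medians −0.12 and −0.21), beside 3.18% and 4.08% of all genes lower. CA9, carbonic anhydrase IX, changed by −1.55 ± 0.37 with TSPAN7 IgA (edgeR adjusted p = 0.00971), NDRG1 by −0.54 ± 0.09 (0.000749) and PDK1 by −0.43 ± 0.07 (0.000429). The difference between series was not tested.

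Of 11 tested other angiogenic factors, 6 were higher and 1 lower with IgA against untreated cells (median 1.32), beside 12.9% and 12.1% of all genes. The counts were the same without IgA replicate 3, and the median was 0.78. EDN1, the vasoconstrictor endothelin-1, rose by 2.92 ± 0.27 (edgeR adjusted p = 1.95e-05), or by 2.66 ± 0.24 without that library (5.53e-06), THBS1, an inhibitor of angiogenesis, by 2.78 ± 0.32 (8.86e-05), and CYR61, a matricellular protein, by 2.30 ± 0.16 (1.37e-06). With TSPAN7 IgA 6 of 12 were higher and 1 lower (median 0.18), beside 4.46% and 4.08% of all genes, among them THBS1 (0.88 ± 0.16, edgeR adjusted p = 0.00145) and EDN1 (0.49 ± 0.11, 0.00874), with ANGPTL4 lower (−0.97 ± 0.24, 0.0145). With BDNF IgA 1 of 12 was higher (median 0.07), beside 4.49% of all genes. Each of the 18 list and marker genes named here for IgA against untreated cells stayed called in its direction without IgA replicate 3.

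Against IgG, where 12.6% of all genes were higher and 11.6% lower and which shares the IgA libraries with the comparison above, IgA gave 5 higher and 3 lower of the signalling genes, 6 and 1 of the regulators, 2 and 3 of the neuropilin partners, 8 and 0 of the hypoxia targets and 6 and 1 of the other angiogenic factors. IgG against untreated cells called none in any list by edgeR, with 0 at an unadjusted p under 0.05 and 0 by DESeq2. The edgeR p-values of that comparison were conservative, as given above.

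**Figure D5:**
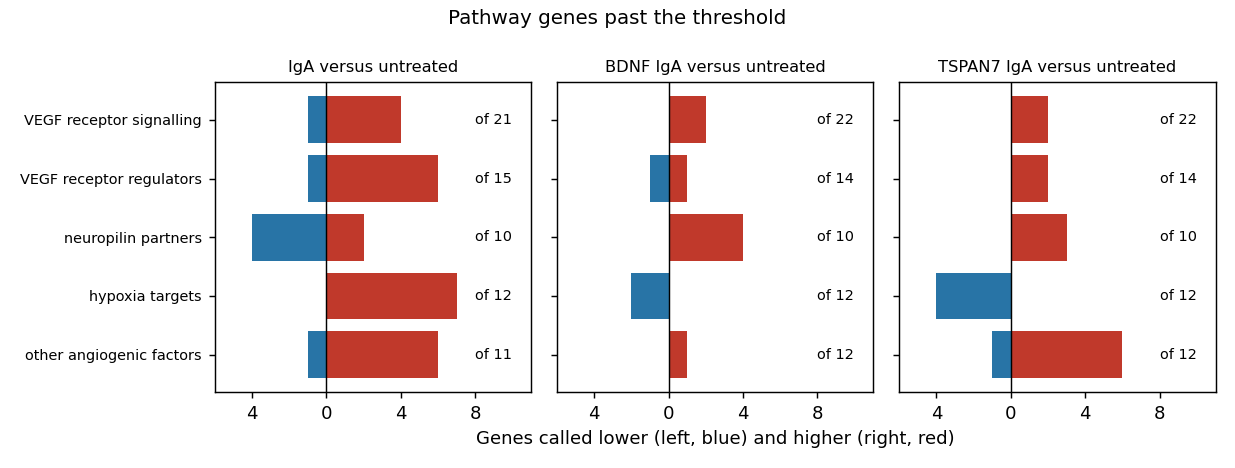
Number of genes called lower (blue, left) and higher (red, right) in 5 pathway lists against untreated cells, with the number tested at the right of each row. Hypoxia targets extend right with non-specific IgA (7 of 12) and left with BDNF IgA (2) and TSPAN7 IgA (4).

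Of 10 serous markers of the line, 2 were higher and 2 lower with IgA (median −0.06), beside 25.0% of all genes called; without IgA replicate 3 they were 1 and 2. They included WT1, a transcription factor of serous tumours (−1.26 ± 0.23, edgeR adjusted p = 0.00208), and the keratins KRT7 (0.50 ± 0.09, 0.00199) and KRT8 (−0.41 ± 0.11, 0.0179). With BDNF IgA 4 were higher, among them MSLN (0.31 ± 0.08, 0.0148), beside 7.67% of all genes called (median 0.14). With TSPAN7 IgA KRT7 was higher (0.54 ± 0.05, 2.6e-07) and 2 were lower, including MUC16 (−0.47 ± 0.08, 0.000343), beside 8.54% (median −0.09). PTPRC, a leukocyte marker with 6 to 24 counts in the libraries with TSPAN7 IgA and untreated cells, was called with TSPAN7 IgA (1.39 ± 0.43, edgeR adjusted p = 0.0487) and not by DESeq2. Summed endothelial markers ranged from 7.31 to 16.3 CPM with IgA, 13.3 to 18.9 with IgG and 15.5 to 16.9 in untreated cells of the first series. In the second series they ranged from 10.8 to 12.3 with BDNF IgA, 10.7 to 12.1 with TSPAN7 IgA and 9.85 to 11.2 in untreated cells. Their part in the VEGF gene values was not tested.

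The genes whose pattern was most like that of KDR were found by Pearson r of log2 CPM over the 18 libraries, each gene centred within its series, among 13347 genes with a mean of at least 50 normalised counts in each series. PEX26, a peroxisome membrane protein, was the most alike (r = 0.93), and the 5 most alike also held TCHH (0.86), COX20 (0.86) and RP5-1103G7.4 (0.86). PEX26 differed from untreated cells by −0.29 with IgA, −0.15 with BDNF IgA and −0.22 with TSPAN7 IgA on the log2 scale, a smaller change than that of KDR. The most opposite genes were PLSCR1, an interferon-induced scramblase (−0.93), TIMP2, a metalloproteinase inhibitor (−0.92), KRT7 (−0.89), TMSB4XP8 (−0.89) and SUPT20H (−0.88). PLSCR1 differed from untreated cells by 0.67 with IgA, 0.82 with BDNF IgA and 0.89 with TSPAN7 IgA. KDR itself lay under the floor of 50 in the second series and was kept. Its group means there were 30.6 (BDNF IgA), 22.9 (TSPAN7 IgA) and 63.6 (untreated cells). The libraries by which KDR was chosen are among the 18. The libraries also share treatments, so the r values describe the pattern and carry no p.

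The r of each member with KDR is given by series, with 9 libraries in each. It was −0.69 in the first and 0.61 in the second with VEGFA, −0.37 and 0.74 with NRP1, and −0.86 and 0.05 with NRP2. With VEGFB it was 0.74 and 0.14, with VEGFC −0.76 and −0.58, and with PGF −0.18 and −0.64. Over all 18 libraries it ran from −0.59 (NRP2) to 0.49 (VEGFB), and these pooled values mix series of unlike sign for VEGFA, NRP1 and NRP2. For VEGFA the most alike of 13346 genes were ACSS2 (0.95), EXOC4 (0.95), DDIT4 (0.95), AKAP12 (0.93) and MIA3 (0.93), and NRP2 had 0.81 (first series 0.85, second series 0.36). The 5 most opposite held FOSB (−0.91), GEN1 (−0.91), CCNF (−0.90) and BARD1 (−0.90). By Spearman rho, 4 of the 10 genes chosen for KDR and 6 of the 10 for VEGFA were again among the 5 most alike or the 5 most opposite.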

How the data were processed

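Total RNA of 18 OVCAR3 samples was sequenced with paired-end reads. The authors used cutadapt for trimming, STAR for alignment to GRCh37 and featureCounts for unique reads per gene, although the submitters' processing notes name HTSeq 0.6.1; the deposited values are raw counts with no normalization. Strand use is not given in the sources used here. The second table held 57820 rows, of which 2055 were exact repeats and were dropped.

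Each series was fitted once on its 9 libraries by the two-sided quasi-likelihood F test of edgeR 4.0.16 (R 4.3.3), after filterByExpr and TMM scaling, with group as the only term. P-values were adjusted by Benjamini-Hochberg over all 18012 or 18732 genes tested, with calls made under 0.05. The SE was derived from F as |log2 fold change|/√F. KDR has no p in the second series. The error of the edgeR fit covers counting noise together with the spread between libraries, and the reads carry no molecular identifiers. Replicates differed beyond sampling noise (chi-square per degree of freedom 3.91 to 232), so none was counted as a copy.

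The members and gene lists were chosen with earlier results of these data known. Named list genes are, per series, the 3 largest changes among called genes of a list against untreated cells; all 8 members, FLT4 and FIGF were named whatever their values, and likeness chose the 5 highest and 5 lowest r, over log2 CPM (prior count 2); 1 gene so chosen for KDR and 1 for VEGFA are not reported here. Of the endothelial markers, PECAM1 was not analysed here. Alternatives were DESeq2 1.42.0, other scalings and filters, leaving out mitochondrial genes, the 6 libraries compared alone, a replicate block and leaving out each library. Refitting the gene lists without IgA replicate 3 was chosen after seeing the data. The fit was tested on simulated data.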

Additional observations from a re-analysis of the deposited data

Results flagged for a closer look

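Responses of 4 VEGF system genes to IgA and to IgG, each set against the same untreated cells, differed by the test of IgA against IgG itself. KDR was lower with IgA than with IgG (log2 fold change −1.27, edgeR adjusted p = 0.00353), with all 3 IgA libraries below all 3 IgG libraries. NRP2 (1.68, edgeR adjusted p = 9.97e-05), VEGFC (1.96, edgeR adjusted p = 0.00587) and VEGFA (0.63, edgeR adjusted p = 0.014) were higher with IgA. For each of these, all 3 IgA libraries lay above all 3 IgG libraries. In that comparison 24.2% of all genes were called, and groups did not overlap for 40.3%.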

How the results depend on the processing

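KDR, NRP2 and VEGFC stayed called in the same direction for IgA against IgG and against untreated cells under all 18 alternatives to each comparison, with adjusted p up to 0.0371 for KDR and 0.045 for VEGFC, and PGF stayed called for BDNF IgA (up to 0.0244). With 1 library left out, KDR in the second series was −1.13 to −0.97 with BDNF IgA and −1.58 to −1.31 with TSPAN7 IgA. KDR was chosen by its fall in these libraries, so this is a description and the kept sign lends no support. For TSPAN7 IgA against untreated cells, 2 members were called in place of 1 by DESeq2, RLE, upper quartile or library size scaling, no filter, the 6 libraries alone and the replicate block, and 0 to 2 when 1 library was left out; VEGFA was the gene gained in the settings other than left-out libraries. Between TSPAN7 IgA and BDNF IgA, 1 member was called in place of 0 by DESeq2, library size scaling, no filter and the replicate block, and 0 to 2 with 1 library left out. The cause was not tested. NRP1 was called for IgA with no filter as well. With 1 library left out, all genes called ran from 2566 to 5286 (IgA against IgG), 2601 to 5229 (IgA against untreated cells), 734 to 2798 (BDNF IgA), 757 to 2304 (TSPAN7 IgA) and 482 to 3276 (TSPAN7 IgA against BDNF IgA). Library size scaling gave 873 higher and 3631 lower genes for IgA against IgG in place of 2265 and 2095, and 1001 and 3296 in place of 2316 and 2187 against untreated cells. To look for pairing, each gene's group mean was subtracted from its log2 CPM. What remained correlated between same-numbered libraries of different groups at −0.069 to 0.247 for the first series and −0.017 to 0.089 for the other. The highest value was that of replicate 3 of IgG and untreated cells, whose replicates 1 and 2 gave 0.056 and 0.063. The labels do not say whether numbers pair the samples, and the main fit had no replicate term. The block changed the other counts of members called in no comparison.

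Sign changes were found only in differences that were not called. PGF for IgA against IgG was −0.043 under upper quartile scaling, −0.20 under library size scaling, −0.0016 with no filter, −0.042 with the replicate block and −0.39 to 0.30 with 1 library left out; against untreated cells it was −0.14 to 0.55. FIGF was −0.040 for IgA against IgG under library size scaling, and −0.68 to 0.90, −0.54 to 0.98 (IgA against untreated cells) and −0.49 to 0.70 (IgG against untreated cells) with 1 library left out. For IgG against untreated cells the left-out ranges were −0.37 to 0.10 (FLT4), −0.12 to 0.18 (NRP1), −0.025 to 0.087 (NRP2), −0.20 to 0.12 (VEGFA), −0.030 to 0.024 (VEGFB) and −0.59 to 0.19 (VEGFC), and VEGFB was 0.013 under library size scaling. For BDNF IgA they were −0.16 to 0.18 (FLT4), −0.072 to 0.065 (VEGFA) and −0.049 to 0.039 (VEGFC), with FLT4 at −0.00032 under upper quartile scaling and VEGFA at 0.0062 and VEGFC at 0.014 under library size scaling. KDR had 16 to 181 counts per library, and counting alone gives a coefficient of variation of 8.43% to 21.3% by group, beside 7.84% to 21.3% between replicates. VEGFC in the first series varied by at least 38.2% between replicates, beside 8.53% to 14.6% from counting.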
